A study of Mus musculus with 28 samples.

Results

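The 39 genes described here encode the proteins that carry long-chain fatty acids into a cell, activate them and oxidise them. They were listed by symbol and not by a measured value, though earlier results of these data were known when they were chosen. All 39 were among the 55011 gene symbols of the count table. By role, 7 act in uptake, 5 in activation, 5 in the carnitine shuttle, 9 in mitochondrial beta-oxidation, 4 in the oxidation of unsaturated fatty acids, 6 in peroxisomal beta-oxidation and 3 in electron transfer. Bulk RNA sequencing had been done on medullary thymic epithelial cells (mTECs) of C57BL/6 mice, cells that transcribe genes of many peripheral tissues and present them to developing T cells. Wild-type mTECs were sorted into an entero-hepato gate (n = 3 libraries) and a non-entero-hepato gate (n = 3). All other mice carried Foxn1cre(+/-), a Cre recombinase driven by a gene of the thymic epithelium. Their controls, Hnf4a(fl/+)Hnf4g(+/-), had therefore already lost 1 allele of each gene and are not wild type. Post-Aire mTEClo came from these controls (n = 4), from Hnf4a(fl/fl)Hnf4g(+/-) mice (Hnf4a-removed, n = 3), from Hnf4a(fl/+)Hnf4g(-/-) mice (Hnf4g-removed, n = 3) and from Hnf4a(fl/fl)Hnf4g(-/-) mice (double-removed, n = 4). Hnf4g(-/-) is written as a null allele, not a floxed one. The cells called mTEChi came from controls (n = 4) and double-removed mice (n = 4). Each library was made from 1000 sorted cells. The sources used here state no ages. The labels number the thymi without saying that each came from its own animal, so the p-values rest on differences among libraries that may be technical.

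As background, fatty acids enter a cell through carriers such as CD36 and the Slc27 transport proteins and are joined to coenzyme A by acyl-CoA synthetases of the Acsl family. Mitochondria import them as carnitine esters, through carnitine palmitoyltransferases and the carrier Slc25a20, and shorten them by repeated rounds of dehydrogenation, hydration, a further dehydrogenation and thiolysis. Peroxisomes run a parallel pathway for very long and branched chains. Gut absorptive cells and hepatocytes are known for high rates of fatty acid handling, and HNF4A and HNF4G are nuclear receptors that control lipid genes in those tissues.

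The libraries held between 4330120 and 8342583 counted reads, and 27045 to 31055 symbols had at least 1 read. Below, levels are in CPM, read counts relative to library size, scaled by edgeR's TMM factors over all 28 libraries, and fold changes come from the fit of each comparison. All 8 thymic epithelium markers exceeded 1 CPM in every group. Hnf4a averaged 49.8 ± 17.3 CPM (SD, n = 3) in the entero-hepato gate and 5.78 ± 0.329 (n = 3) in the other gate, and Hnf4g averaged 147 ± 27.6 and 18.9 ± 1.97. In mTEClo, Hnf4a averaged 4.63 ± 2.05 CPM (n = 4) in controls, 3.42 ± 1.13 (n = 3) without Hnf4a, 3.36 ± 0.891 (n = 3) without Hnf4g and 3.15 ± 0.846 (n = 4) without both. Hnf4g averaged 12.7 ± 2.73, 7.83 ± 1.60, 8.12 ± 0.776 and 5.23 ± 2.24 CPM in the same order, so a full loss of reads was not seen for either gene. In mTEChi, Hnf4a averaged 4.44 ± 2.99 CPM in controls and 4.08 ± 2.32 without both genes, and Hnf4g 19.7 ± 3.22 and 7.54 ± 3.59 (n = 4 each). None of these differences from controls passed edgeR's test (adjusted p = 0.0633 for Hnf4g in double-removed mTEClo and 0.0862 in double-removed mTEChi). The lower Hnf4g of double-removed mTEClo passed with DESeq2 (0.00398), voom (0.048), no filter on low counts (0.029) and without control library 1 (0.042) or double-removed library 4 (0.0238). In mTEChi it passed with DESeq2 (0.00194), no filter (0.0018) and without double-removed library 4 (0.0127). Counts per whole gene do not say whether those reads lie in the deleted part. Hnf4g-removed mTEClo library 1 stood apart from its group, with the lowest mean correlation with its group of all libraries (0.926).

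A few members could not be counted cleanly with short unstranded reads. The share of 38-base stretches also found in any other gene was 45.8% for Acaa1b and 20.7% for Acaa1a. Each shared most with the other, its near copy. The share was 48% for Etfb (most with the overlapping gene Gm45233), 79.3% for Cpt1b (Gm44502), 30.9% for Acadvl (Dvl2) and 21.8% for Hadhb (Gm13910). Values of these genes are uncertain. Slc27a6, a heart transporter, and Cpt1b, the muscle form of carnitine palmitoyltransferase, were too low to test in any comparison. Slc27a5, the liver transporter, was tested only in the fit of control and double-removed mTEChi and mTEClo. Cpt1b did not exceed 0.625 CPM in any library.

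The first comparison asks how wild-type entero-hepato mTECs differ from other mTECs. Every role had at least 1 member higher in the entero-hepato gate: edgeR's quasi-likelihood test called 19 of the 36 tested members higher and 5 lower at an adjusted p of 0.05. The background was 22.7% of 16811 genes called higher and 21.8% called lower. The median log2 fold change was 0.55 over the members and -0.05 over all genes tested. In 20 members every entero-hepato library lay above every other library and in 6 every one lay below, where these counts took 27.9% and 28.5% of all genes. The balance depended on scaling. With plain library totals in place of TMM, the median of all genes shifted by -0.36, and 12 members were then higher and 11 lower against 14.4% and 37% of all genes. The higher share of all called genes fell from 51.1% to 28%. Ehhadh (log2 fold change 2.10 ± 0.23 SE), Cd36 (1.75 ± 0.43), Hadh (1.66 ± 0.11) and Slc27a4 (1.60 ± 0.23) had the largest increases, and Slc27a3 had the largest decrease (-3.45 ± 0.42). Since the RNA is from sorted pools, a change in how many cells express a gene cannot be told apart from a change in RNA per cell, here or in later comparisons.

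**Figure D1:**
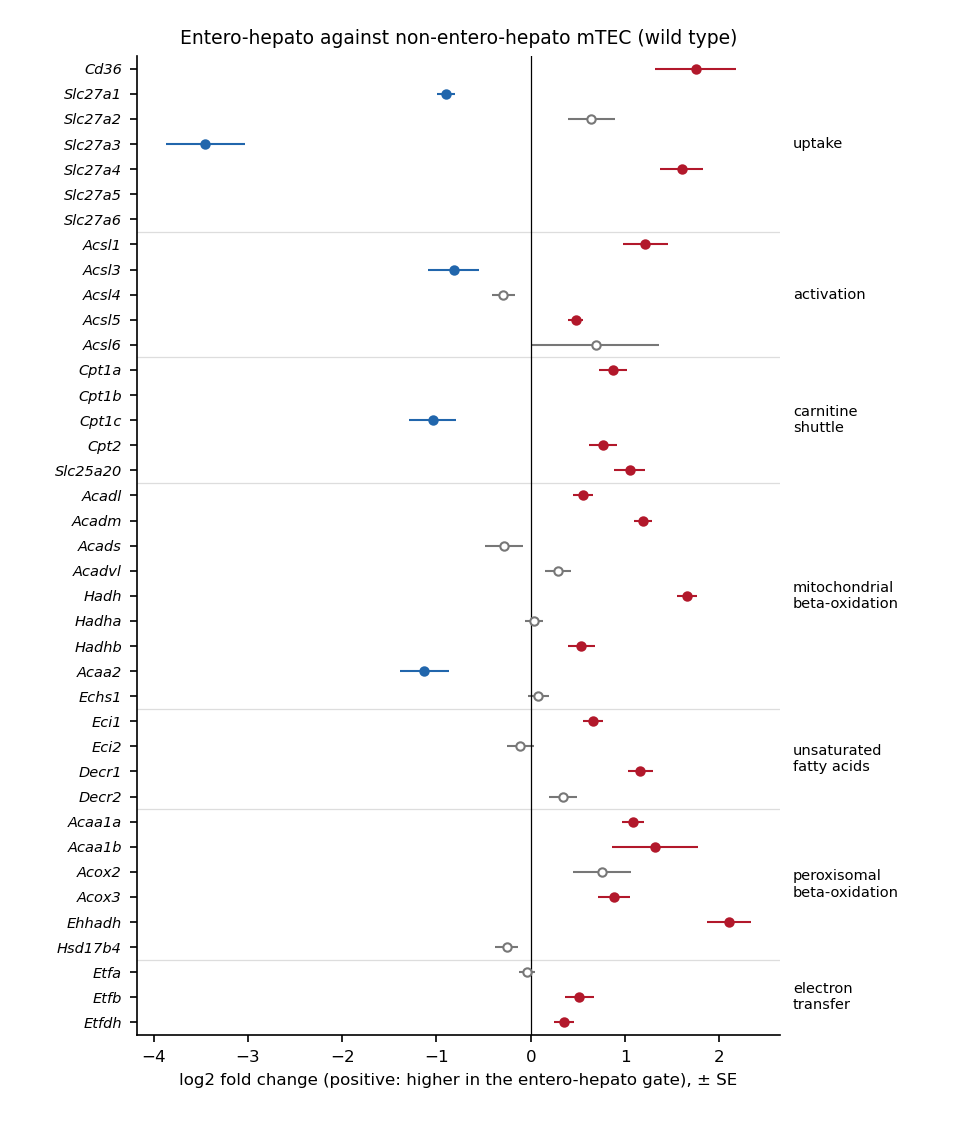
Log2 fold change with its SE for the 36 tested members, wild-type entero-hepato against non-entero-hepato mTECs (n = 3 and 3), ordered by role. Red points are called higher, blue called lower and open points not called; 19 red points against 5 blue run from Ehhadh at 2.10 to Slc27a3 at -3.45.

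Uptake carriers moved in opposite directions. Cd36, a membrane receptor for long-chain fatty acids, measured 48.3, 16.5 and 49.9 CPM in the entero-hepato libraries and 8.72, 15.7 and 9.26 in the others (adjusted p = 0.0102). The highest of the others nearly reached the lowest of the entero-hepato libraries, with no overlap. Slc27a4, the fatty acid transport protein of gut absorptive cells, measured 57.5, 56.6 and 45.1 against 15.6, 12.8 and 23.5 CPM (adjusted p = 0.000532). Slc27a3 did the reverse, with 2.29, 1.11 and 4.47 CPM inside the gate and 33.6, 23.5 and 30.0 outside it (adjusted p = 0.00024). Without entero-hepato library 3 its log2 fold change was -4.07. Across the 22 other libraries, all sorted as mTEClo or mTEChi, Slc27a3 stayed between 0.587 and 6.11 CPM, below every non-entero-hepato library. Slc27a1, an insulin-responsive carrier of muscle and fat, was also lower, at 81.3, 93.3 and 94.8 CPM against 170, 158 and 170 (log2 fold change -0.90 ± 0.10, adjusted p = 0.000134). Slc27a2, the very-long-chain carrier of liver and kidney, was 31.3 ± 6.24 against 19.8 ± 5.15 CPM (n = 3 each) and was not called (adjusted p = 0.0642), except without the filter (0.0175), without entero-hepato library 2 (0.0333) or without non-entero-hepato library 2 (0.034).

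Among the acyl-CoA synthetases, Acsl1 and Acsl5 were higher and Acsl3 lower. Acsl1, the main form in liver, fat and heart, measured 212, 219 and 157 CPM against 58.5, 116 and 75.5 (log2 fold change 1.22 ± 0.24, adjusted p = 0.00357). Acsl5, the intestinal form, measured 229, 241 and 236 against 169, 160 and 174 CPM, a smaller but tight difference (0.48 ± 0.08, adjusted p = 0.00172) that was lost with plain library totals (0.11, adjusted p = 0.3). Acsl3, a form found on lipid droplets, measured 12.5, 24.8 and 20.3 against 28.8, 40.9 and 31.0 CPM (-0.82 ± 0.27, adjusted p = 0.0349). Its call was lost without entero-hepato library 1 or 3 or non-entero-hepato library 2 or 3 (adjusted p from 0.0621 to 0.135). Acsl4, which prefers arachidonic acid, and the brain form Acsl6 were not called.

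All steps of the carnitine shuttle were higher in the entero-hepato gate except the brain isoform of its first enzyme. Cpt1a, the liver-type enzyme that commits fatty acids to mitochondrial import, measured 169, 118 and 153 CPM against 88.4, 69.7 and 79.7 (0.87 ± 0.15, adjusted p = 0.00162). Cpt1c, the form best known from neurons, measured 10.4, 17.1 and 20.6 against 31.1, 33.2 and 34.2 CPM (-1.04 ± 0.25, adjusted p = 0.00849). Cpt2, which reforms acyl-CoA inside the mitochondrion, measured 138, 155 and 165 against 71.4, 88.2 and 107 CPM (0.77 ± 0.15, adjusted p = 0.00304), and narrowly lost its call with plain library totals (adjusted p = 0.0545). Slc25a20, the carrier that exchanges acylcarnitine for carnitine across the inner membrane, measured 76.5, 59.3 and 67.6 against 33.0, 25.8 and 38.6 CPM (1.05 ± 0.17, adjusted p = 0.00113). The groups did not overlap for any of these 4 genes.

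The enzymes of the mitochondrial spiral did not move as a block: 4 of 9 were higher, 1 was lower and 4 were not called. Hadh, the dehydrogenase for medium and short chains, had the smallest adjusted p of all members. It measured 370, 309 and 324 CPM in the entero-hepato gate and 115, 97.2 and 103 outside (adjusted p = 7.57e-06), and these 3 libraries exceeded all others of the series, the next highest being 150. Acadm, the medium-chain acyl-CoA dehydrogenase, measured 127, 129 and 128 against 57.3, 50.6 and 58.6 CPM (1.19 ± 0.10, adjusted p = 2.56e-05). Acadl, the long-chain form, measured 107, 91.4 and 110 against 69.7, 66.8 and 71.4 (0.55 ± 0.11, adjusted p = 0.00329), and was not called with plain library totals (0.19, adjusted p = 0.165). Acaa2, the thiolase that closes the cycle, went the other way, with 14.8, 8.72 and 15.8 CPM against 33.4, 23.5 and 28.4 (-1.13 ± 0.26, adjusted p = 0.00776). Acads, Acadvl, Hadha and Echs1 had log2 fold changes from -0.28 to 0.29.

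**Figure D2:**
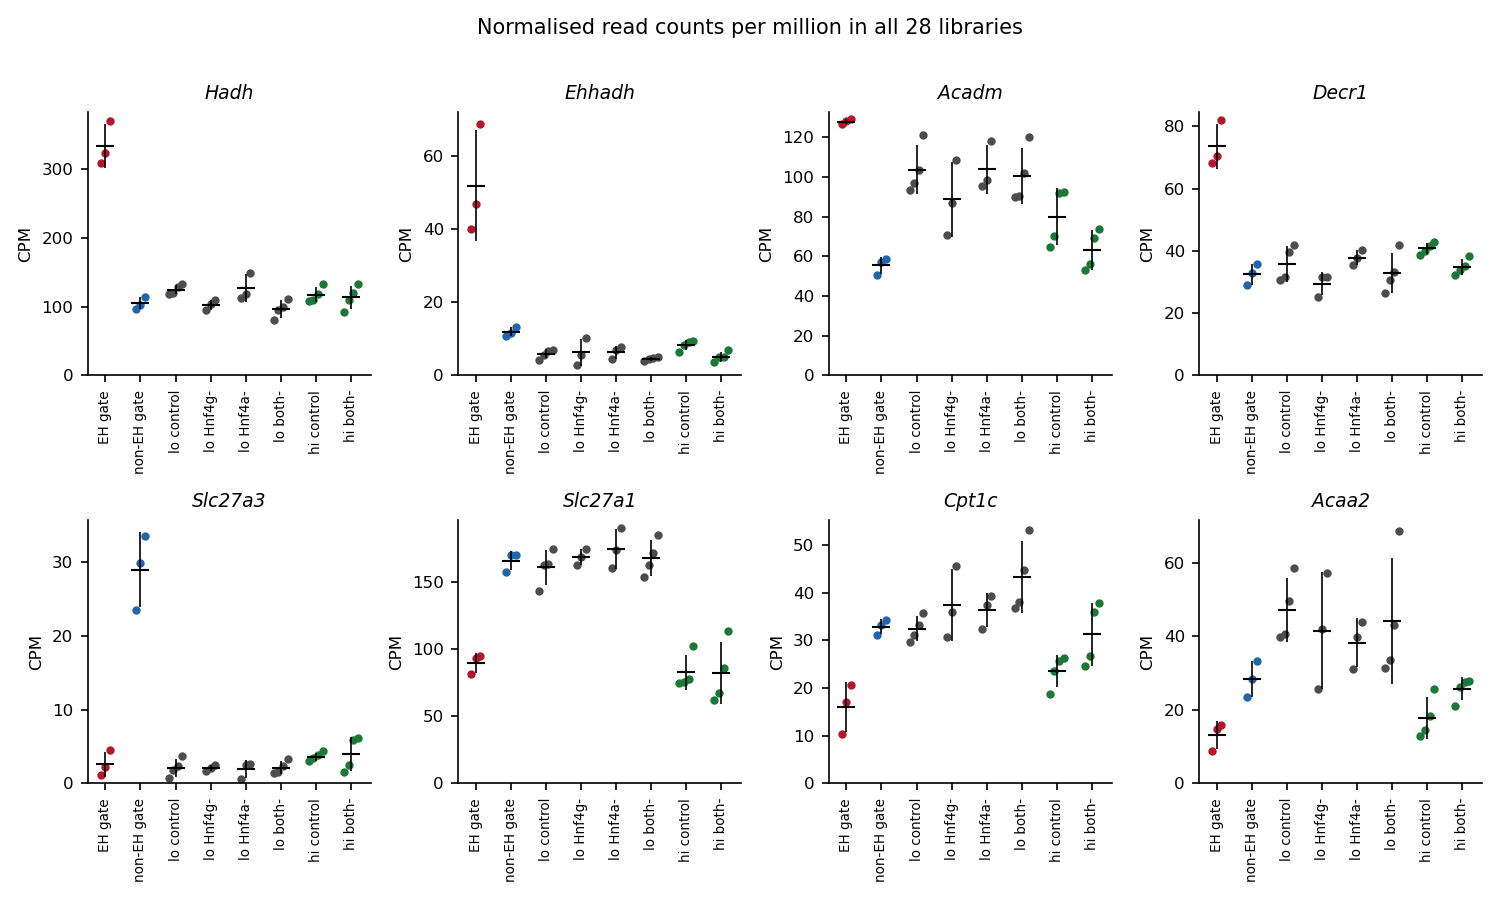
CPM of 8 members in all 28 libraries (points), with the mean and SD of each group; EH gate and non-EH gate are the wild-type sorts, lo and hi are mTEClo and mTEChi, and a minus sign marks a removed gene. Hadh lies between 309 and 370 in the entero-hepato gate and does not exceed 150 elsewhere, while Slc27a3 lies at 23.5 or more only in the non-entero-hepato gate.

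Hadha and Hadhb encode the subunits of the trifunctional protein and lie head to head on chromosome 5, Hadha on the minus strand (30118304 to 30155162) and Hadhb on the plus strand (30155248 to 30184593). Their shared upstream stretch is shown because Hadhb passed the test and Hadha did not. It runs between the first exons that GENCODE M21 annotates for the pair (GRCm38.p6, chr5:30155163-30155247, plus strand, read towards Hadhb, with CpG dinucleotides in capitals):
Hadha/Hadhb: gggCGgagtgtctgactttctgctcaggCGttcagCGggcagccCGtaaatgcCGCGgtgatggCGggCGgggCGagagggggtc
Hadhb was higher in the entero-hepato gate, at 72.7, 63.4 and 70.2 CPM against 42.7, 54.4 and 43.5 (0.54 ± 0.14, adjusted p = 0.0137), and Hadha was not called at 247, 211 and 212 against 211, 212 and 226. The Hadhb call was lost without non-entero-hepato library 1 or 3 (adjusted p = 0.05 and 0.0536) and with plain library totals (0.17, adjusted p = 0.321). The ratio of Hadhb to Hadha in CPM was 0.309 ± 0.0196 against 0.217 ± 0.0340 (n = 3 each). The ranges did not overlap, and the exact two-sided permutation p was 0.1, the smallest that 3 against 3 libraries allow. This ratio was chosen after its values were seen, and p-values adjusted over the 6 comparisons in which it was computed are given with it (0.3 here).

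Of the enzymes that remove or shift double bonds, Decr1 and Eci1 were higher. Decr1, the mitochondrial dienoyl-CoA reductase, measured 81.9, 70.5 and 68.1 CPM against 32.8, 29.0 and 35.6 (1.16 ± 0.13, adjusted p = 0.000164). Eci1, a mitochondrial enoyl-CoA isomerase, measured 87.3, 86.4 and 90.5 against 60.2, 51.9 and 53.3 (0.66 ± 0.11, adjusted p = 0.00114). Their relatives Decr2 and Eci2 were not called, and the value of Decr2 changed sign with plain library totals (0.34 with TMM and -0.020 with plain totals).

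Peroxisomal beta-oxidation held the member with the largest increase. Ehhadh, the bifunctional enzyme of the straight-chain pathway, measured 69.0, 46.9 and 40.1 CPM in the entero-hepato gate and 13.3, 10.9 and 11.7 outside (adjusted p = 0.000136). Hsd17b4, its counterpart for branched chains, measured 75.2, 63.4 and 64.0 against 83.4, 82.1 and 74.1 and was not called (-0.26). Acaa1a, a peroxisomal thiolase, measured 283, 227 and 268 against 110, 131 and 123 CPM (1.08 ± 0.12, adjusted p = 0.000136). Its near copy Acaa1b measured 54.2, 46.9 and 53.2 against 37.1, 6.51 and 17.9 (1.31 ± 0.46, adjusted p = 0.0438). That call was lost with DESeq2 (adjusted p = 0.0985), with plain library totals (0.107) and without entero-hepato library 1, 2 or 3 or non-entero-hepato library 3 (0.0717 to 0.12). The value itself was 2.07 without non-entero-hepato library 1 and 0.91 without library 2. Acox3, an oxidase of branched chains, measured 94.0, 85.5 and 106 against 43.0, 45.1 and 64.8 (0.89 ± 0.17, adjusted p = 0.00271). Acox2, the bile acid side-chain oxidase, was not called (0.75 ± 0.31, adjusted p = 0.079), except without the filter (0.0137) or without non-entero-hepato library 3 (0.0231).

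The bases upstream of Hadh and Ehhadh are given because these genes had the smallest adjusted p and the largest increase among the members, and that of Slc25a20 because it was the member called after removal of both Hnf4 genes. RefSeq start-site windows were matched for 33 of the 39 members (GRCm38.p6); Slc27a5, Slc27a6, Cpt1b, Decr1, Acaa2 and Hsd17b4 had none here. Shown are 250 bases before the start site of Hadh (chr3:131272102-131272351, minus strand) and of Ehhadh (chr16:21787835-21788084, minus strand) and the 202 bases before the first annotated Slc25a20 exon (chr9:108661886-108662087, plus strand), with CpG dinucleotides in capitals:
Hadh: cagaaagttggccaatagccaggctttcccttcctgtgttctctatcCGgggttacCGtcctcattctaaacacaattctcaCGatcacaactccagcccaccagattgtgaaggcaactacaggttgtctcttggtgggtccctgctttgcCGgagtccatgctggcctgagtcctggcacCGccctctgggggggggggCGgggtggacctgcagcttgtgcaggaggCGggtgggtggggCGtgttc
Ehhadh: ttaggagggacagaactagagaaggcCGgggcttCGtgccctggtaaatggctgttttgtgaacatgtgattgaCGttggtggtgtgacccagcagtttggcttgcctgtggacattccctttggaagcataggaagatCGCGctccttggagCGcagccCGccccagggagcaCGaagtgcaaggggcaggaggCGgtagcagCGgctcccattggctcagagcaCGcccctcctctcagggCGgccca
Slc25a20: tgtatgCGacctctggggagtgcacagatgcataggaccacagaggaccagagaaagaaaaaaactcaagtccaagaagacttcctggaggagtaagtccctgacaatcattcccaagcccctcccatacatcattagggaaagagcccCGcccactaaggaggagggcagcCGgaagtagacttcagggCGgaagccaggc
Hadh has 8 CpG dinucleotides in its stretch, Ehhadh 12 and Slc25a20 4. An observed to expected CpG ratio over 0.6 was found in 17 of 39 member windows (43.6%) and in 35.8% of all 32851 windows of the same 300 bases. Both strands of these windows were searched for the HNF4 motif CAAAGTCCA, its core CAAAGTC (which lies within it), and the direct repeat DR1, a pair of AGGTCA spaced by 1 base, in that form and in a looser form that contains it, a pair of AGGNCA. None of the 33 members had any of these letters, which occur in 0.475%, 4.44%, 0.0396% and 0.381% of all windows. That says only that these letters are not in these windows.

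The electron transfer flavoprotein passes electrons from acyl-CoA dehydrogenases to ubiquinone. Etfb, its beta subunit, measured 30.8, 33.6 and 31.0 CPM against 22.6, 21.6 and 21.7 (0.52 ± 0.15, adjusted p = 0.022). Etfdh, the ubiquinone oxidoreductase, measured 142, 124 and 155 against 111, 107 and 108 (0.35 ± 0.11, adjusted p = 0.0277). Etfa, the alpha subunit, did not pass the test (-0.04). The Etfb call was lost without entero-hepato library 2 or non-entero-hepato library 2 or 3 (adjusted p from 0.0523 to 0.0598), with DESeq2 (0.0539) and without the filter on low counts (0.0619). The Etfdh call was lost without entero-hepato library 3 or without non-entero-hepato library 1, 2 or 3 (0.062 to 0.0762). With plain library totals Etfb was not called (0.16, adjusted p = 0.424) and the value of Etfdh changed sign (-0.0092).

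The list of other peroxisomal oxidation genes had 17 tested, of which 12 were higher and 1 was lower. These included Crat, the carnitine acetyltransferase (80.4 ± 3.10 against 19.7 ± 1.48 CPM, log2 fold change 2.01), Scp2, a thiolase and sterol carrier (195 ± 25.5 against 63.8 ± 6.39, 1.59), and Phyh, which starts phytanic acid oxidation (301 ± 30.4 against 106 ± 11.6, 1.50; n = 3 each). Peroxisome biogenesis was split, with 4 of 16 higher and 3 lower: the membrane assembly factor Pex16 was higher (0.94 ± 0.13) and its partner Pex3 lower (-0.84 ± 0.14). Carnitine supply had 5 of 7 higher and 1 lower, led by Bbox1, which makes carnitine (94.3 ± 19.1 against 21.8 ± 4.94 CPM, 2.10), and the transporter Slc22a4 (26.7 ± 5.70 against 6.74 ± 1.39, 1.97). Ketone body genes had 4 of 7 higher, among them Bdh1, which interconverts the ketone bodies (0.94 ± 0.15), and 1 lower, the acetoacetyl-CoA thiolase Acat1 (-0.84 ± 0.17). Other mitochondrial acyl-CoA genes had 6 of 19 higher and 2 lower.

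Regulators and storage genes were further apart. Of 17 tested PPAR regulators and targets, 11 were higher and 1 lower: Creb3l3, a transcription factor of liver and gut, rose from 1.99 ± 1.38 to 139 ± 40.0 CPM (6.09 ± 0.37, and 6.78 without non-entero-hepato library 1), and the lipid droplet coat gene Plin2 from 53.8 ± 18.2 to 362 ± 87.5 (2.74 ± 0.26). Nr1h3, the oxysterol receptor LXR-alpha, and the coactivator Ppargc1b were higher by 2.23 ± 0.21 and 1.70 ± 0.19. Fatty acid synthesis and desaturation had 9 of 17 higher and 4 lower, with Scd1 at 463 ± 50.9 against 139 ± 7.76 CPM (1.72 ± 0.11). Triglyceride synthesis and lipolysis had 12 of 18 higher and 2 lower, with the acyltransferase Dgat2 at 1072 ± 134 against 159 ± 15.1 CPM (2.73 ± 0.13) and the droplet protein Cideb at 52.3 ± 10.7 against 2.14 ± 0.699 (4.58 ± 0.28). The genes named had adjusted p-values between 1.73e-06 and 0.00427 by edgeR's quasi-likelihood test, and each kept its call under every alternative run.

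Other markers moved with the gate, and their part in the members' differences was not tested. All 10 enterocyte markers were higher (summed level 11771 to 17888 CPM against 349 to 448) and all 10 proliferation markers lower (43.1 to 59.9 against 675 to 831). Tuft markers were lower in 6 of 8 (119 to 273 against 1405 to 2059 CPM). Microfold markers summed to 4197 to 4981 CPM inside the gate and 875 to 952 outside. Aire-stage markers summed to 20468 to 22946 CPM inside and 10450 to 11464 outside, most of it H2-Ab1 (18885 against 7856 on average). Cd80, Tnfrsf11a and Ctsh also averaged higher inside. Aire (879 against 1637), Fezf2 (116 against 149), Cd40 (225 against 256) and Ciita (372 against 479) averaged lower. CCL21-type markers summed to 241 to 343 CPM inside and 1046 to 1172 outside, mostly Lifr (44.3 against 608 on average) and Itgb4 (158 against 385). Pdpn was also lower inside (17.4 against 59.5), while Krt15 averaged 64.9 and 36.6. Ccl21a itself was almost absent, with no read inside and an average of 0.07 CPM outside. Erythroid markers were higher in 5 of 5 tested (167 to 248 against 16.7 to 26.2), myeloid and dendritic markers in 5 of 11 (837 to 1234 against 343 to 476) and endothelial markers in 4 of 7 tested (36.9 to 144 against 33.0 to 44.5). Of 6 adipocyte markers, 3 could be tested and 1, Lpl, was higher (172 against 31.9 CPM on average), while Adipoq averaged 6.58 against 7.28 CPM and Lep had no read in the entero-hepato gate. The mitochondrially encoded share of reads was 0.779% to 1.00% inside the gate and 1.36% to 1.88% outside.

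The make-up of isoform families was compared as shares of a family's summed level per length (RPKM over GENCODE M21 exon lengths). Cpt1a took 86.4 ± 4.46% of the Cpt1 family in the entero-hepato gate and 63.8 ± 3.51% in the other gate (n = 3 each), and Cpt1c the rest apart from 0.355% for Cpt1b in the former. In control mTEClo Cpt1a took 67.1 ± 2.84% and in control mTEChi 69.6 ± 3.48% (n = 4 each). In the Slc27 family, Slc27a4 took 32.2 ± 4.61% inside the gate against 7.76 ± 2.20% outside, and Slc27a3 1.20% to 4.59% against 19.7% to 25.1%. Slc27a1 was the largest member on average in all 4 of these groups, from 41.2 ± 4.10% in the entero-hepato gate to 56.7 ± 1.24% in the other gate. Acsl5 took the largest share of the Acsl family, from 44.3 ± 3.78% in control mTEClo to 64.7 ± 2.16% in control mTEChi. In control mTEClo that order rests on the lengths used (4864 bases for Acsl5, 10483 for Acsl1), since Acsl1 averaged 194 CPM and Acsl5 169. Per length, the electron transfer subunit Etfa stood first among the members, with 90.4, 92.0, 90.4 and 124 RPKM in the entero-hepato gate, the other gate, control mTEClo and control mTEChi. Hadh (67.1), Cpt2 (63.8) and Acaa1a (58.7 RPKM) followed in the entero-hepato gate, and Cpt2 (37.1), Acadl (34.6) and Acsl5 (34.5 RPKM) in the other gate. These orders are of means, and neighbours within each trio were not tested against each other.

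**Figure D3:**
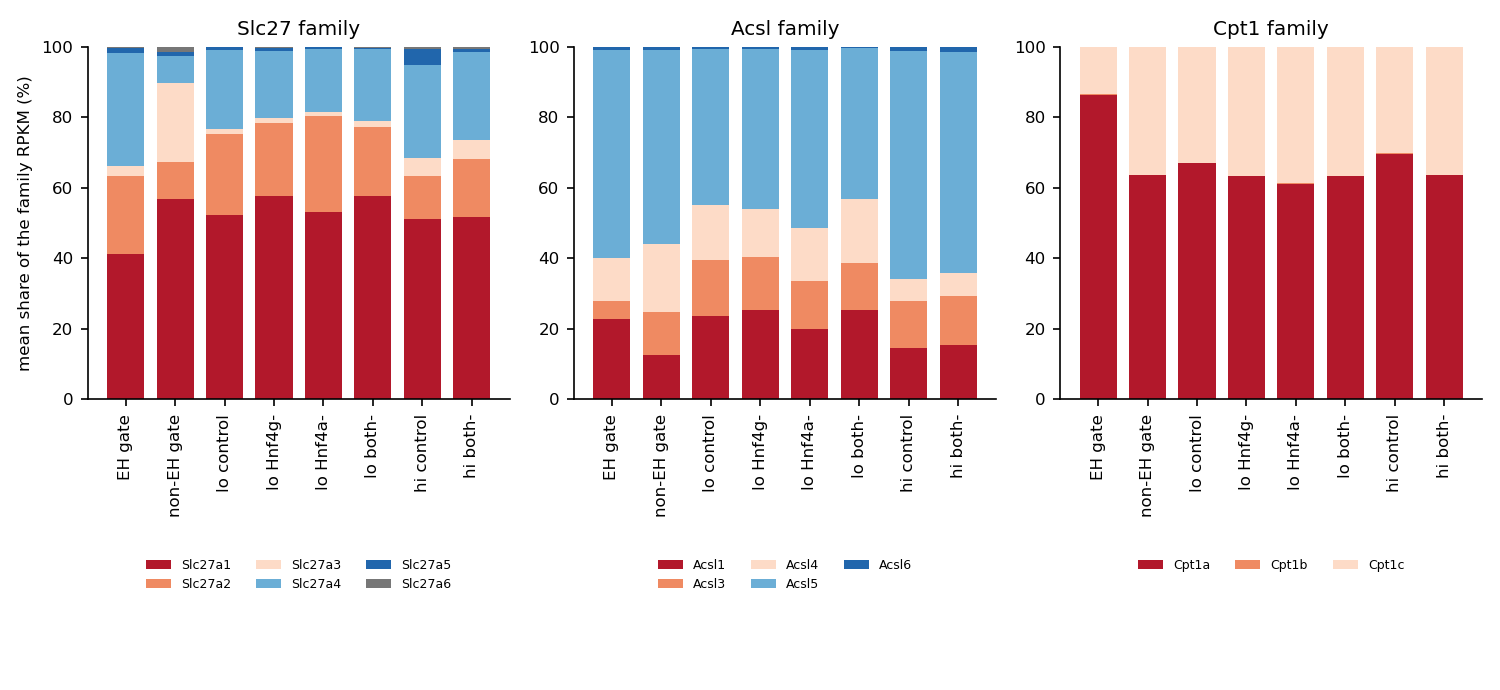
Mean share (%) of the summed RPKM of the Slc27, Acsl and Cpt1 families taken by each gene in the 8 groups (n = 3 or 4 libraries); labels as in the plot of 8 members. Cpt1a takes 86.4% in the entero-hepato gate and 63.8% in the non-entero-hepato gate, and Slc27a3 22.4% in the latter.

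Control mTEChi and control mTEClo were compared next, as the populations in which Hnf4 removal was studied. The mTEChi libraries carry a separate, later range of sample numbers than the mTEClo libraries. If those ranges were processed apart, subset cannot be told apart from such a batch. Lower levels in mTEChi were more common than higher ones among the members: 15 of 37 tested members were lower and 5 higher, where 20.5% and 22.4% of 20095 genes were. The groups did not overlap for 17 members that were lower (21.1% of all genes) and 5 that were higher (20%). The median log2 fold change was -0.26 over the members and 0.04 over all genes. Slc27a2 fell most, from 48.1, 41.8, 40.9 and 50.3 CPM in control mTEClo to 16.7, 14.7, 10.9 and 8.13 in control mTEChi (-1.82 ± 0.21, adjusted p = 2.43e-06). Slc27a1 (82.8 ± 13.2 against 161 ± 13.1 CPM, n = 4 each, -0.93 ± 0.16) and Slc27a4 (32.0 ± 6.87 against 52.1 ± 7.66, -0.66 ± 0.23) fell with it. The Slc27a4 call was lost without control mTEClo library 2 or 3 or control mTEChi library 2 (adjusted p from 0.0509 to 0.0756). Acsl4 measured 76.5, 68.3, 61.4 and 56.0 CPM in mTEClo and 21.1, 22.2, 20.1 and 29.6 in mTEChi (-1.46 ± 0.15, adjusted p = 8.02e-07), with no overlap. Acsl1 was lower as well (-0.82 ± 0.14, adjusted p = 0.000159), whereas Acsl5 was higher (0.44 ± 0.12, adjusted p = 0.00856). Of the uncalled members of at least 10 CPM, Cd36 (12.0 ± 6.81 against 24.9 ± 17.0 CPM), Acsl3 (41.7 ± 5.09 against 54.3 ± 6.89) and Acadm (80.0 ± 14.4 against 104 ± 12.3) fell most. Cd36 was called without control mTEClo library 1 (0.0474), and Acsl3 without control mTEClo library 2 (0.0269) or control mTEChi library 1 (0.0359). Acadm was called with a replicate block (0.0367) or without control mTEChi library 1 (0.0422) or 4 (0.0407).

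In the carnitine shuttle, Slc25a20 was lower in mTEChi and Cpt2 higher. Slc25a20 averaged 52.2 ± 5.65 against 101 ± 10.2 CPM (-0.91 ± 0.13, adjusted p = 3e-05) and Cpt2 193 ± 21.8 against 128 ± 20.6 (0.62 ± 0.12, adjusted p = 0.000322; n = 4 each). Among the mitochondrial enzymes, Acaa2 (-1.38 ± 0.25), Acads (-1.07 ± 0.25), Acadl (-0.84 ± 0.16) and Hadhb (-0.39 ± 0.11) were lower, with adjusted p-values from 0.000257 to 0.00681. Hadha was not called, and the ratio of Hadhb to Hadha was 0.297 ± 0.0426 in mTEChi and 0.450 ± 0.0270 in mTEClo (n = 4 each). The ranges did not overlap (exact two-sided permutation p = 0.0286, the smallest that 4 against 4 allow, and 0.171 adjusted over 6 comparisons). Decr2 was lower (-0.50 ± 0.15, adjusted p = 0.0147), but not without control mTEClo library 3 (0.0619).

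The peroxisomal members split between thiolase copies. Acaa1b measured 8.16, 5.24, 9.20 and 9.08 CPM in control mTEClo and 49.3, 33.8, 35.0 and 35.7 in control mTEChi (2.31 ± 0.49, adjusted p = 0.00103). Acaa1a was slightly lower in mTEChi (119 ± 13.3 against 149 ± 5.46 CPM, -0.29 ± 0.10, adjusted p = 0.0224). Its call was lost with DESeq2 (adjusted p = 0.0574), with the RLE size factors (0.0568), without the filter (0.0554) and without control mTEClo library 3 or control mTEChi library 1 or 4 (0.057 to 0.0659). Hsd17b4 was lower, at 69.7, 60.6, 54.2 and 57.3 against 125, 141, 98.4 and 125 CPM (-0.99 ± 0.12, adjusted p = 3.68e-06). In electron transfer, Etfa (228 ± 30.6 against 166 ± 21.6 CPM, 0.49 ± 0.11) and Etfdh (151 ± 18.7 against 107 ± 5.18, 0.53 ± 0.11; n = 4 each) were higher. Etfb (-0.41, adjusted p = 0.0482) and Cpt1c (-0.43, adjusted p = 0.0499) were called lower at the edge of the threshold. Cpt1c lost its call whichever of the 8 libraries was left out (0.0515 to 0.134), and Etfb lost it without control mTEClo library 2 or 3 or control mTEChi library 1, 2 or 3 (0.0691 to 0.158). Both also missed the threshold with DESeq2 and voom.

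Genes called in one comparison did not take one direction in the other. Of the 19 members higher in the entero-hepato gate, 4 were higher and 7 lower in control mTEChi, and of the 5 lower in the gate 3 were lower there. These comparisons share no library. Among neighbouring pathway genes, mTEChi had 3 higher and 5 lower of 18 other peroxisomal genes, 2 and 4 of 16 biogenesis genes, 5 and 5 of 21 other mitochondrial acyl-CoA genes, 2 and 2 of 8 ketone body genes, and 1 and 3 of 7 carnitine supply genes. PPAR regulators and targets had 6 higher and 4 lower of 19, fatty acid synthesis 6 and 5 of 17, and triglyceride genes 5 and 4 of 19. Pex3 fell from 237 ± 17.5 to 66.8 ± 16.9 CPM (-1.79 ± 0.14, adjusted p = 1.64e-08), Oxct1, which burns ketone bodies, from 178 ± 29.4 to 69.2 ± 9.47 (-1.33 ± 0.14, 5.82e-07) and the lipase gene Pnpla3 from 58.0 ± 8.29 to 5.90 ± 3.28 (-3.22 ± 0.32, 3.58e-07; n = 4 each). Acacb, whose product makes the malonyl-CoA that restrains Cpt1, was higher at 143 ± 5.82 against 53.6 ± 11.7 (1.45 ± 0.15, 6.64e-07). The hormone gene Fgf21 was higher at 455 ± 37.5 against 146 ± 36.3 (1.67 ± 0.17, 3.74e-07). Aire-stage markers summed to 22872 to 23607 CPM in mTEChi and 3830 to 6898 in mTEClo, tuft markers to 326 to 502 and 5989 to 8043, and dissociation stress markers to 1599 to 2310 and 3689 to 4293. In the same order, myeloid and dendritic markers summed to 1382 to 1818 and 411 to 685 CPM, fibroblast and pericyte markers to 664 to 745 and 135 to 257, proliferation markers to 515 to 647 and 75.4 to 227, and microfold markers to 1451 to 2324 and 3118 to 4334. Their part in these differences was not tested.

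After removal of both Hnf4 genes 1 of the 36 tested members was called in mTEClo. Slc25a20, the carnitine-acylcarnitine carrier, rose from 113, 95.2, 90.1 and 104 CPM in controls to 158, 156, 144 and 138 in double-removed mTEClo. All 4 double-removed libraries were above all 4 controls (log2 fold change 0.57 ± 0.10 SE, adjusted p = 0.0134). The background was 0.16% of 18775 genes called higher and 0.581% called lower. The call was lost without control library 3 (0.52, adjusted p = 0.0516) or double-removed library 2 (0.54, adjusted p = 0.0532). Tuft markers, of which 2 of 8 were called higher, summed to 8746 to 9430 CPM in the double-removed libraries and 5989 to 8043 in controls. Aire-stage markers, of which 1 of 8 was called lower and all 8 had negative values, summed to 2845 to 3264 against 3830 to 6898 CPM. Microfold markers, of which 4 of 8 were called lower, summed to 2749 to 3107 against 3118 to 4334 CPM. All 10 proliferation markers had negative values with none called (42.5 to 77.6 against 75.4 to 227 CPM). The part of these markers in the Slc25a20 difference was not tested. In the 3 Hnf4a-removed libraries Slc25a20 measured 115, 116 and 97.1 CPM and in the 3 Hnf4g-removed libraries 98.5, 99.2 and 108, against 90.1 to 113 in controls.

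The other members were not called without both genes. The median log2 fold change over the 36 was 0.04, against -0.00 over all genes, and 20 of 36 values were positive. No member was lower at an adjusted p of 0.05 by edgeR, DESeq2 or voom, and 7 members had an unadjusted p under 0.05. The groups did not overlap for 2 members that were higher (3.57% of all genes) and 2 that were lower (4.34%). Hadh measured 111, 80.7, 94.7 and 99.3 CPM against 119, 128, 132 and 120, with every double-removed library below every control, and was not called (-0.37 ± 0.11, adjusted p = 0.165). Cpt1c measured 38.0, 53.2, 36.8 and 44.9 against 35.7, 29.8, 31.2 and 33.3 CPM (0.41 ± 0.15, adjusted p = 0.256). Cd36 spread widely, from 3.34 to 40.1 CPM in controls and 32.6 to 49.0 in double-removed libraries (0.64 ± 0.57, adjusted p = 0.725), and was called only without the filter on low counts (0.00862). Acsl6, at 1.57 ± 1.72 against 4.21 ± 2.15 CPM (n = 4 each), had the most negative value of the members (-1.41 ± 0.67, adjusted p = 0.407), with overlapping groups. The 19 members higher in the entero-hepato gate had changes from -0.41 to 0.64 with a median of 0.0066. In the same libraries 7 of 10 enterocyte markers were lower, their sum going from 572 to 841 CPM in controls to 229 to 307. Of the pathway lists, Pex3 was the 1 gene called (361 ± 22.5 against 237 ± 17.5 CPM, n = 4 each, 0.61 ± 0.09, adjusted p = 0.00682), and it was called under every alternative run.

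**Figure D4:**
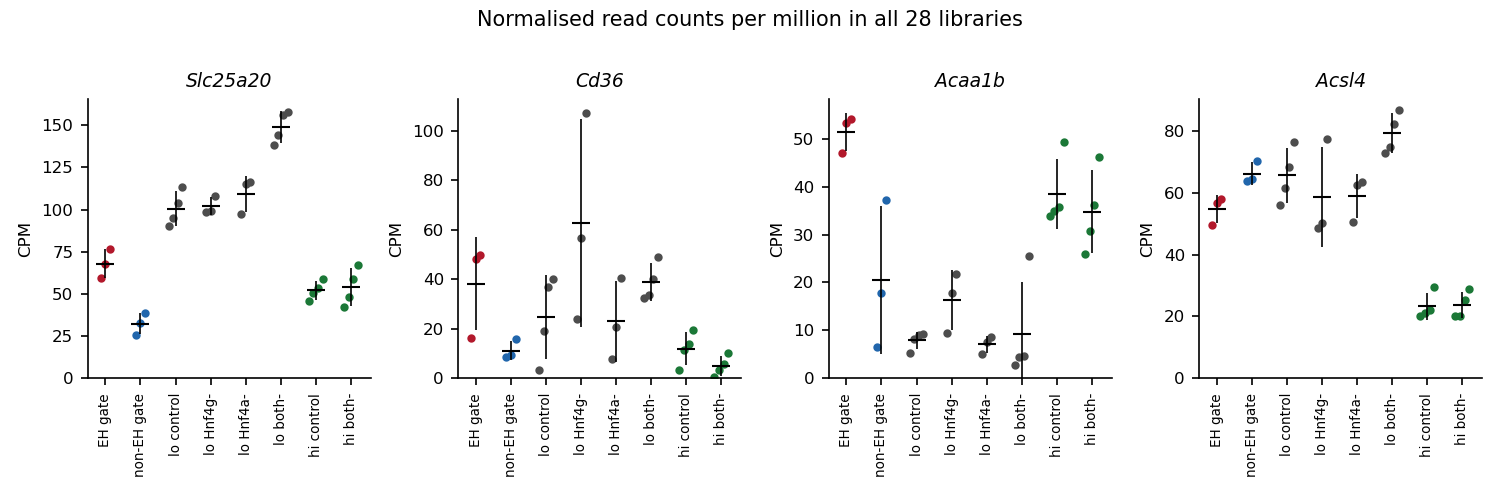
CPM of 4 members in all 28 libraries (points), with the mean and SD of each group; labels as in the plot of 8 members. Slc25a20 lies between 138 and 158 in double-removed mTEClo and between 90.1 and 113 in control mTEClo, and Acsl4 is at most 29.6 in all mTEChi libraries.

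After removal of 1 gene no member was called by edgeR with its filter. Without Hnf4a, 0 of 36 members were called in mTEClo by edgeR, DESeq2 or voom, where edgeR called 0.00533% of 18775 genes higher and 0% lower, and 4 members had an unadjusted p under 0.05. The groups did not overlap for 0 members that were higher (3.58% of all genes) and 1 that was lower (3.32%), Acsl1. The largest changes were -0.35 ± 0.16 for Acsl3, 0.35 ± 0.13 for Slc27a2 and -0.34 ± 0.14 for Acsl1, with adjusted p of 0.799 or more. Without Hnf4g, 0 of 36 were called by the same 3 tools (0% of genes higher and 0.0959% lower), and 3 had an unadjusted p under 0.05. The groups did not overlap for 1 member that was higher (3.61%) and 2 that were lower (4.34%). The lower ones were Hadh (104, 94.7 and 109 CPM against 119 to 132 in controls) and Slc27a2 (34.92, 40.90 and 40.21 against 40.95 to 50.28). Cd36 measured 107, 56.8 and 23.8 CPM in Hnf4g-removed mTEClo, overlapping the control range (1.33 ± 0.61, adjusted p = 0.6), with its highest value in the library that stood apart, and was called only without the filter (1.55e-10). Without that library its log2 fold change was 0.69 (adjusted p = 0.928). Acaa1b (1.04 ± 0.58, no overlap with controls) and Acox2 (0.80 ± 0.46, overlapping) had the next largest values, with adjusted p of 0.686 and 0.702. The 3 mTEClo comparisons share their 4 control libraries.

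In mTEChi no member was called after removal of both genes. By edgeR, DESeq2 and voom 0 of 36 were called, where edgeR called 0.038% of 18413 genes higher and 0.597% lower, and 2 members had an unadjusted p under 0.05. The groups did not overlap for 0 members that were higher (2.98%) and 1 that was lower (3.67%). Cd36 measured 0.768, 5.78, 3.36 and 10.3 CPM against 3.24, 13.7, 19.7 and 11.5 in controls (-1.23 ± 0.63, adjusted p = 0.497). Among members with a mean of at least 10 CPM, Acaa2 (0.53 ± 0.23) and Acadl (0.53 ± 0.19) had the next largest values, with overlapping groups. Ehhadh, below that level, was 5.15 ± 1.36 against 8.32 ± 1.32 CPM (n = 4 each, -0.68 ± 0.32, adjusted p = 0.453). The median over the members was 0.04 and over all genes 0.01. Pathway genes called lower were Cideb (0.411 ± 0.439 against 6.53 ± 2.12 CPM, adjusted p = 0.0255), the fatty acid elongase gene Elovl7 (64.0 ± 5.88 against 103 ± 8.54, -0.68 ± 0.12, 0.0207) and the medium-chain acyl-CoA synthetase gene Acsm1 (-1.61 ± 0.33, 0.0489). With a replicate block in the fit all of these calls were lost (adjusted p = 0.071 for Cideb, 0.0732 for Elovl7 and 0.139 for Acsm1). The Acsm1 call was also lost with voom (0.0603), without the filter on low counts (0.053) and whichever of the 8 libraries was left out (0.0687 to 0.156). That of Elovl7 was lost without control library 3 or 4 or double-removed library 1 or 4 (0.0591 to 0.0916), and that of Cideb without control library 1, 3 or 4 or double-removed library 1 or 4 (0.0691 to 0.102). The log2 fold change of Cideb was -3.98 ± 0.72, and -4.79 without double-removed library 2. In the same libraries 7 of 10 enterocyte markers were lower, with sums of 358 to 459 against 998 to 1370 CPM in controls. The part of those markers was not tested.

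The effect of removing both genes was not shown to differ between mTEChi and mTEClo for any member. In a fit of both subsets, 0 of 37 members had a called interaction by edgeR, DESeq2 or voom, where edgeR called 0.0398% of genes in the direction of mTEChi and 0.0199% in the other, and 3 members had an unadjusted p under 0.05. For Slc25a20 the change in mTEChi less that in mTEClo was -0.52 (adjusted p = 0.269): its libraries measured 58.8, 67.0, 48.5 and 42.1 CPM in double-removed mTEChi and 59.1, 45.6, 50.4 and 53.5 in control mTEChi. Among members with a mean of at least 10 CPM, the largest differences were those of Cd36 (-1.88 ± 0.88, adjusted p = 0.43), Slc27a2 (0.71 ± 0.29, 0.355) and Acaa2 (0.63 ± 0.35, 0.529).

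**Figure D5:**
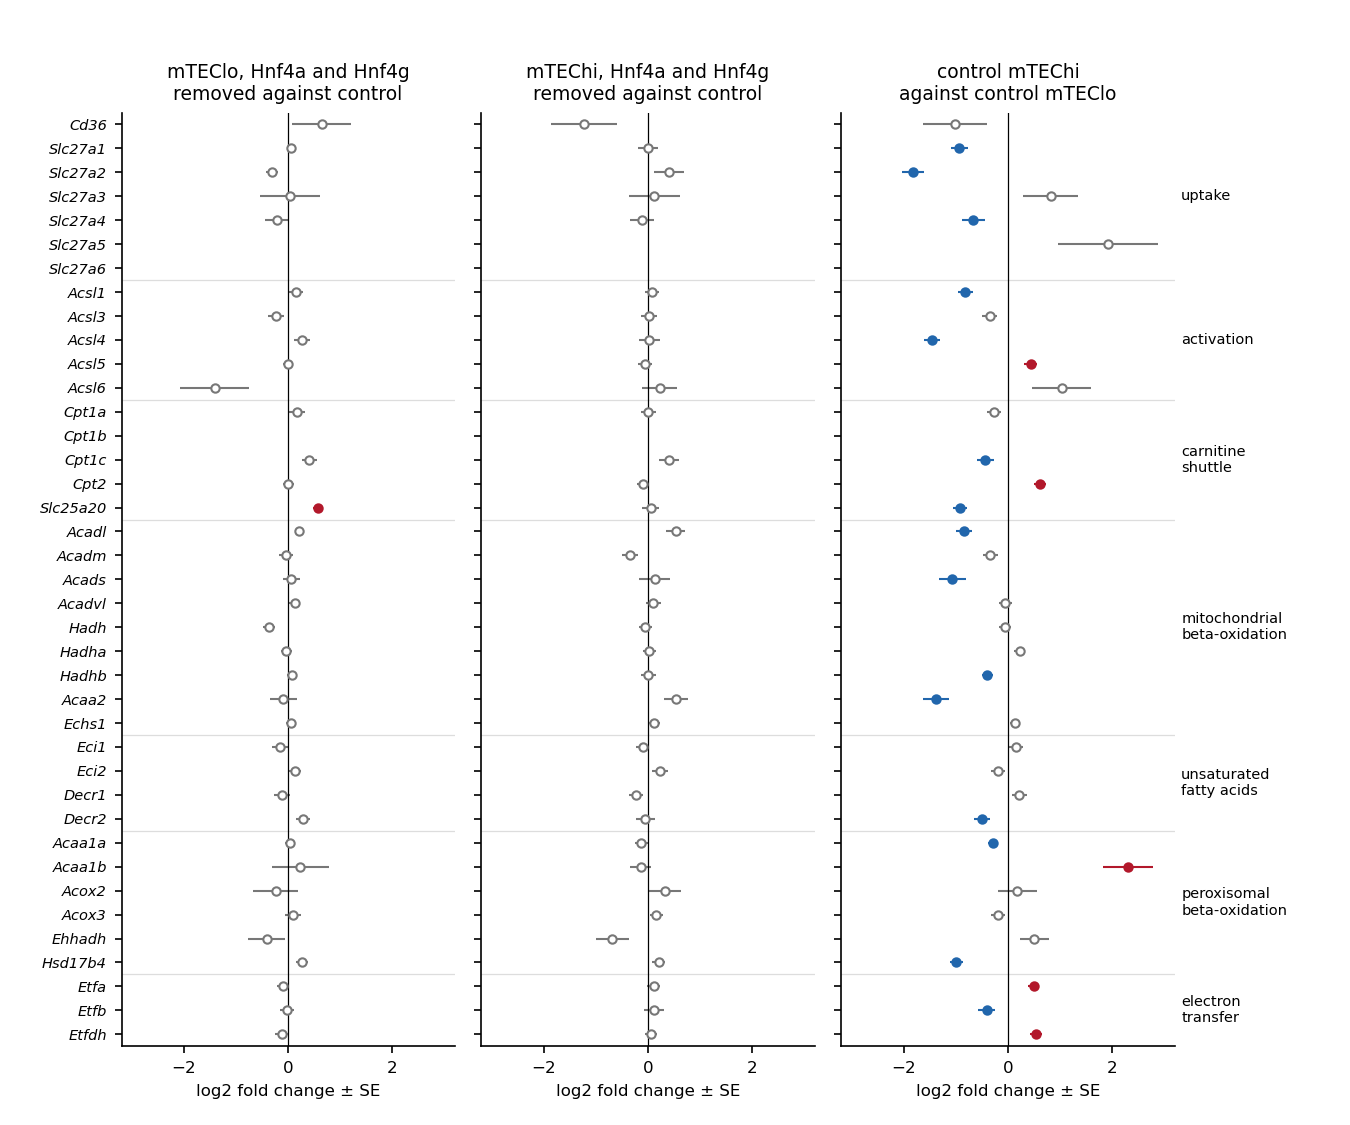
Log2 fold change with its SE of the tested members after removal of both Hnf4 genes in mTEClo (left) and mTEChi (middle) and in control mTEChi against control mTEClo (right), n = 4 libraries a group; colours as in the plot of the entero-hepato gate. Slc25a20 is the 1 coloured point among the removals, at 0.57, while 5 red and 15 blue points mark the comparison of subsets.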

How the data were processed

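Bulk RNA of 28 libraries in 8 groups was analysed. The authors deposited 1 table of raw read counts per gene symbol, aligned with STAR 2.7.3a and counted with featureCounts on mm10, per the submitters' processing notes; the annotation and the settings of the counter were not given in the sources used here. Per the labels' protocols, cDNA was primed with oligo(dT), cut with Tn5, amplified for 18 cycles and sequenced as paired 38-base reads without molecular identifiers or strand. The table has 0 columns without a sample. Libraries hold 4330120 to 8342583 counted reads.

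Counts were fitted with edgeR 4.0.16 (R 4.3.3): filterByExpr (minimum count 10, total 15), TMM factors, the quasi-likelihood test and Benjamini-Hochberg adjustment over all genes tested, with a threshold of 0.05. Separate fits held the 6 gated libraries, the 14 mTEClo, the 8 mTEChi, and the 16 control and double-removed libraries. Fold changes are log2 with their SE. CPM used TMM over all libraries, and RPKM divided it by GENCODE M21 exon-union length. DESeq2 1.42.0, voom (limma 3.58.1), RLE factors, no filter, a replicate block, 2-group fits and leaving out each library were alternatives; plain library totals and leaving out the library that stood apart were added after seeing the data. The tests were tried on simulated counts with 200 genes changed 2-fold and no others, drawn from genes above a floor on the mean count. They recovered 45% of these in the gates, 54.5% in double-removed mTEClo, 42.5% in double-removed mTEChi and 51% between control subsets. Of the calls, 6.25%, 9.17%, 7.61% and 1.92% were false in the same order. A member not called may therefore still have changed. In the data far more than 200 genes were called in the gates and between control subsets, so recovery there may differ from the simulation.

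Each member called in a comparison was named, with the 3 uncalled members of largest change (mean of at least 10 CPM), and up to 4 called genes per pathway list. The Hadhb to Hadha ratio, and other uncalled members given with values, were chosen after their values were seen. The members and lists (131 pathway genes, 164 markers) were chosen with earlier results of these data known. The libraries of a group differed by more than sampling noise (chi-square per degree of freedom 5.93 to 24.2 over 36 pairs), so each was counted as 1.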

Additional observations from a re-analysis of the deposited data

Results flagged for a closer look

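In 6 of 55 groups of 4 libraries examined (1 gene in 1 group each), 1 library stood far from the other 3, a criterion that chance meets in about 5% of groups. Acaa1b measured 49.3 CPM in control mTEChi library 1 and 33.8 to 35.7 in the others. Hadhb measured 70.6 CPM in the same library and 60.4 to 62.1 in the others. Slc27a1 measured 103 CPM in control mTEChi library 2 and 74.9 to 77.9 in the others. Acadl measured 59.8 CPM in control mTEChi library 4 and 39.4 to 40.3 in the others. Acsl1 measured 231 CPM in control mTEClo library 3 and 177 to 185 in the others. Cpt2 measured 159 CPM in control mTEClo library 4 and 116 to 121 in the others.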

How the results depend on the processing

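With plain library totals the entero-hepato gate had 12 members higher and 11 lower, and Etfdh (-0.0092) and Decr2 (-0.020) changed sign. Of 24 members called there, 16 kept their call under every alternative run, and of 20 called between control mTEChi and mTEClo, 15 did. Without the filter on low counts, double-removed mTEClo had 2 members higher and Hnf4g-removed mTEClo 1. Leaving out single libraries gave 0 to 1 members higher in double-removed mTEClo. Hnf4a, low outside the entero-hepato gate, had no stable sign: in double-removed mTEChi it was 0.055 with voom and -0.51 to 0.24 with single libraries left out. Between control mTEChi and mTEClo it was 0.029 with RLE factors, 0.028 with DESeq2 and -0.39 to 0.31 with single libraries left out. The interaction of Hnf4g ran from -0.49 to 0.21 in the same way. The cause was not tested for any of these.

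Counts over all genes, higher and lower, were 3822 and 3657 in the gates and 2419 and 6226 there with plain totals. In ratio they moved by more in the removals: double-removed mTEClo had 30 and 109, 224 and 743 without the filter and 112 and 339 with DESeq2. Hnf4a-removed mTEClo had 1 and 0, 93 and 119, and 5 and 5 in that order; Hnf4g-removed mTEClo 0 and 18, 196 and 286, and 40 and 97; double-removed mTEChi 7 and 110, 231 and 388, and 106 and 318; the interaction 8 and 4, 273 and 48, and 247 and 98. Voom gave 1 and 3 for the interaction, and plain totals 13 and 4. Single libraries left out gave 4 to 63 and 42 to 144 in double-removed mTEClo, 5 to 61 and 64 to 126 in double-removed mTEChi, 0 to 13 and 8 to 16 in Hnf4g-removed mTEClo, and 0 to 124 and 1 to 33 for the interaction.

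Thymus numbers gave no clear sign of pairing. With group means taken off, same-numbered libraries correlated between -0.0248 and 0.0625, except for 1 pair at 0.216. Such correlations cannot exclude that same-numbered libraries shared an animal or a day. In the gates each library correlated best with its own number, a hint only. With the replicate block, members called were 19 and 5 in the gates, 1 and 0 in double-removed mTEClo, 5 and 14 between control subsets and 0 elsewhere. Over all genes the block gave 31 and 173 in double-removed mTEClo, 10 and 79 in double-removed mTEChi and 2 and 3 for the interaction.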
